A study of Homo sapiens with 3 samples.

Results

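The TGF-β, SMAD and ID genes examined here were TGFB1, TGFBR1, TGFBR2, SMAD2, SMAD3, SMAD4, SMAD7, ID1, ID2 and ID3, a set of 10 genes taken from a list of names and found on the arrays through RefSeq accessions. They were read by 11 probes on 38 spots, out of 34127 gene probes and 19740 gene symbols on the array. All 11 probes were well above background on all 3 arrays, whereas 22114 of the 34127 gene probes were. The samples were Huh7 cells, an established human hepatoma line, left untreated or treated for 24 h with chlorogenic acid (CA), a plant polyphenol, at 50 μM or 100 μM. The comparison asks which of these genes differed between CA-treated and untreated cells, in a study of CA as an inducer of tumor cell differentiation. The groups are called by dose below. By the study's methods, CA was dissolved in DMSO and the untreated control was its DMSO vehicle. Each group was 1 sample on 1 single-colour Agilent array, so that there were no replicates and no test across samples could be made. Folds of 1.5 and 2 are therefore fixed rules of size that describe these arrays. The errors given are SDs between a probe's spots of the log2 ratio to untreated, taken spot by spot. They leave out the variation between cultures. The RNA was bulk RNA, in which a lower level in every cell cannot be told apart from fewer expressing cells.

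TGF-β1 is secreted in a latent form and, once released, binds the type II receptor TGFBR2, which activates the type I receptor TGFBR1. The receptors phosphorylate SMAD2 and SMAD3, which join SMAD4 and enter the nucleus to regulate transcription, while SMAD7 is induced by the pathway and inhibits it at the receptor. ID proteins are helix-loop-helix proteins without a DNA-binding region that hold E proteins off DNA, and their genes are classical targets of the related BMP signals. In hepatocytes TGF-β is known as a brake on growth, and ID proteins as inhibitors of differentiation in many lineages.

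The promoter sequences of the ligand gene and the 3 ID genes are shown because TGFB1, ID1 and ID3 had the 3 ratios furthest from untreated among the members at 50 μM and ID2 completes the ID family. RefSeq promoters (GRCh38.p14) matched all 10 members, and the 250 bases before the start are given 5′ to 3′ on the strand of the gene. Capitals mark matches, on either strand, to any of 4 motifs. The GC box, which SP1-type factors bind, was searched as GGGCGG. For the TATA box, a core promoter element, the letters were TATAAA. SMAD3 and SMAD4 bind the SMAD element, searched here as CAGAC. The BMP element, a GC-rich site of SMAD1 and its relatives, was taken as GGCGCC.
TGFB1, chr19:41353923-41354172, minus strand: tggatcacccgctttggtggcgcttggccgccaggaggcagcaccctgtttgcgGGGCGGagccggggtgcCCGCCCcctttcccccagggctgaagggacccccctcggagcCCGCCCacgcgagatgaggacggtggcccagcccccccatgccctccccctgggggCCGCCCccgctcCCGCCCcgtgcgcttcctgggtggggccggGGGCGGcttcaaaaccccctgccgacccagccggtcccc
ID1, chr20:31605039-31605288, plus strand: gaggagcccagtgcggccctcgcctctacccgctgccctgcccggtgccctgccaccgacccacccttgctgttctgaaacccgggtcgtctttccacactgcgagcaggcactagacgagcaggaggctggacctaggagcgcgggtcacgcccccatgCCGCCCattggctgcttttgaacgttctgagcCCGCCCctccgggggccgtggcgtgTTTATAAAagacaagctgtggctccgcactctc
ID2, chr2:8681806-8682055, plus strand: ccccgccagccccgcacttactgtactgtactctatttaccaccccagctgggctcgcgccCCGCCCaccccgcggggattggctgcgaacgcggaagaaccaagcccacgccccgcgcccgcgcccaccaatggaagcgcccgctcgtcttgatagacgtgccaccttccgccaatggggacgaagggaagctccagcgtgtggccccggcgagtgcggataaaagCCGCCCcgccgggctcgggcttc
ID3, chr1:23559502-23559751, minus strand: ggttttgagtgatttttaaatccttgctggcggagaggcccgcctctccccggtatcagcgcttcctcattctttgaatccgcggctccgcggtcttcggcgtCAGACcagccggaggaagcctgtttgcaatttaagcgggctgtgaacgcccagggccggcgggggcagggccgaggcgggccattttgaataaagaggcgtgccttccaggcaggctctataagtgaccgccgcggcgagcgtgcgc
The TGFB1 stretch held 6 GC boxes and no match to the other motifs. ID1 and ID2 held 2 GC boxes each. ID1 also held 2 overlapping TATA matches on opposite strands, beginning 33 and 31 bases before the start. ID3 held 1 CAGAC match, 147 bases before the start. Of 35116 RefSeq promoters cut to the same length, 42.6% held a GC box, 10.7% a TATA box, 38% a SMAD element and 16.4% a BMP element. The GC content was 76.8% for TGFB1, 66% for ID1, 69.2% for ID2 and 62% for ID3, against a median of 58% over all of these promoters. These matches describe the letters in the window, and no binding was measured.

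The array signals were of like depth. Between 70.4% and 71.1% of gene spots were well above background, and the 75th percentile used for scaling stood at 1059 intensity units for untreated cells, 1207 for 50 μM and 1249 for 100 μM. The unscaled signals given below thus carry this difference between arrays, while the log2 ratios do not. On the 100 μM array, 5.71% of gene spots lay in areas where dim probes were much brighter than on the other arrays, against 0.139% (untreated) and 0.0881% (50 μM). A single member spot, 1 of the 10 of TGFB1, lay in such an area. It carried an outlier flag and was not used. Of 10 hepatoma markers, 8 were measured on all arrays, with signals from 16641 to 112826 over the 3 arrays, among them ALB and AFP. HNF4A was not well above background on the untreated and 100 μM arrays. The probe of TF had an outlier flag on 2 arrays. Among markers of other cells, DCN and KDR were below that level on all arrays. The 5 measured stellate cell or fibroblast markers, 3 endothelial markers and 4 leukocyte markers had summed signals of 621, 797 and 1062 on the untreated array, of 710, 1089 and 1337 at 50 μM and of 766, 1037 and 1146 at 100 μM. None of these 12 genes was 1.5-fold apart from untreated at either dose, and their part in the results was not tested.

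**Figure D1:**
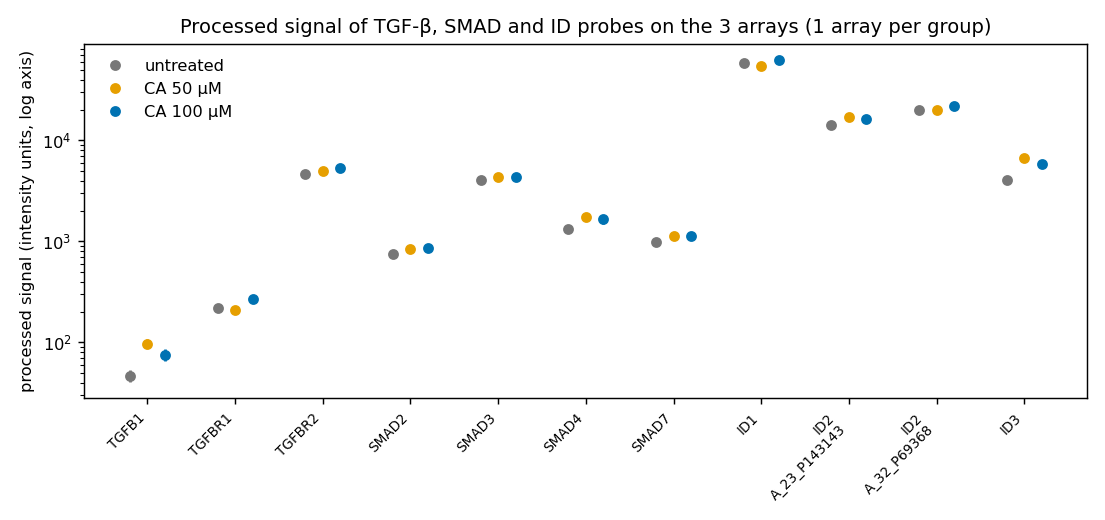
Processed signal (intensity units, log axis) of each member probe on the untreated, 50 μM and 100 μM arrays, 1 point per array, not scaled between arrays; lines at TGFB1, SMAD3 and SMAD4 span the lowest and highest of up to 10 spots. Signals should be read along the 3 points of a probe and not between probes; TGFB1 went from 47.0 to 97.4 and 75.2 units.

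TGFB1 was the member that differed most, and its level was higher at both doses. Its probe (A_24_P79054) was printed 10 times and gave a mean signal of 47.0 intensity units in untreated cells, 97.4 at 50 μM and 75.2 at 100 μM. The spots ranged from 40.2 to 53.2, from 87.6 to 108 and from 65.4 to 86.0 units, so that the ranges of the 3 arrays did not overlap. After scaling, the level of TGFB1 was 1.82-fold that of untreated cells at 50 μM and 1.36-fold at 100 μM. The log2 ratio was 0.86 ± 0.18 (SD of 10 spots on single arrays) and 0.44 ± 0.18 (SD of 9 spots). Every spot was higher than its untreated counterpart, with spot ratios from 0.57 to 1.16 and from 0.27 to 0.86 on the log2 scale. The 100 μM level thus lay between the other 2. TGFB1 is a dim probe, and ratios of dim probes spread widely. Among probes of like signal, 8.99% were at least 1.5-fold higher at 50 μM and 3.82% at 100 μM. With a background correction that adds an offset (normexp), the log2 ratio of TGFB1 at 50 μM was 0.35, under the 1.5-fold limit. At 100 μM it was 1.67 with that correction over all spots, which shifted the whole array, and 0.08 without spots with background flags.

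**Figure D2:**
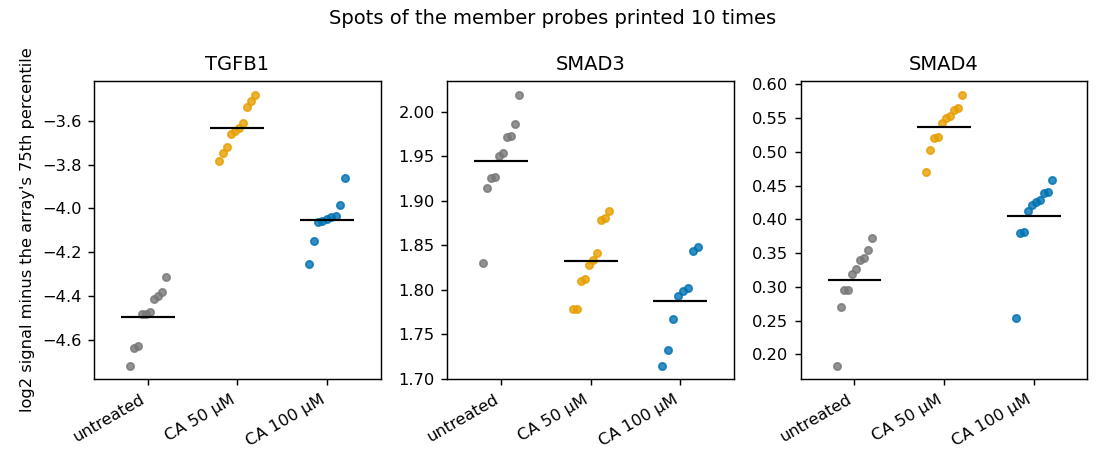
Each point is 1 used spot of the TGFB1, SMAD3 or SMAD4 probe, as log2 signal minus the 75th percentile of its array, drawn in order of value within each of the 3 arrays; black lines are means over spots. The TGFB1 spots of the 3 arrays form separate ranges, whereas those of SMAD3 and SMAD4 at 100 μM overlap with untreated.

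The receptors differed little. TGFBR1, the type I receptor kinase, had a signal of 221 units in untreated cells, 212 at 50 μM and 270 at 100 μM. Its log2 ratio was -0.25 at 50 μM and 0.05 at 100 μM, where the typical SD between spots of probes of like signal was 0.13 at both doses. The sign thus differed between the doses. TGFBR2, which binds the ligand, had signals of 4597, 5026 and 5297 units for untreated, 50 μM and 100 μM. Its log2 ratios of -0.06 and -0.03 were about as large as the typical SD of 0.05 between spots of bright probes, or below it.

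None of the SMADs was 1.5-fold apart from untreated at either dose. SMAD2, a receptor-activated SMAD, gave 753, 844 and 851 units and log2 ratios of -0.03 at 50 μM and -0.06 at 100 μM. SMAD3, the other receptor-activated SMAD of the TGF-β branch, gave mean signals of 4077, 4301 and 4312 units over 10, 10 and 8 spots. Its log2 ratio was -0.11 ± 0.04 (SD of 10 spots) at 50 μM and -0.16 ± 0.04 (SD of 8 spots) at 100 μM, and 0 of 10 and 0 of 8 spots had a ratio above 0. Probes of the same signal class also had medians below 0, of -0.06 and -0.04, so that SMAD3 stood at -0.05 and -0.12 relative to its class. SMAD4, the common partner of both branches, went the other way at 50 μM. Its 10 spots gave mean signals of 1313, 1752 and 1653 units, and its log2 ratio was 0.23 ± 0.05 (SD of 10 spots), with 10 of 10 spots above 0. At 100 μM it was 0.09 ± 0.09, with 9 of 10 spots above 0. The untreated SMAD4 spots, from 1202 to 1370 units, did not overlap in signal with those of either CA array, from 1672 to 1811 and from 1489 to 1716. After scaling, the spots at 100 μM overlapped with the untreated ones. SMAD7, the inhibitory SMAD and a target gene of the pathway, gave 976, 1127 and 1122 units and log2 ratios of 0.02 and -0.04, below the typical SD of 0.07 and 0.06 between spots.

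The ID genes did not move as a family. ID3 had the second largest ratio of all members, with signals of 4069 units in untreated cells, 6619 at 50 μM and 5794 at 100 μM. This was 1.43-fold and 1.21-fold the untreated level after scaling, or log2 ratios of 0.51 and 0.27, against a typical SD of 0.05 between spots of bright probes. Feature Extraction's own error of its log2 ratio was larger, 0.20 at both doses. In its signal class the median ratios were -0.06 and -0.04, with an SD between probes of 0.22 and 0.14. There 0.801% and 0.0898% of probes were at least 1.5-fold higher, a limit that ID3 itself did not reach. ID1 lay on the other side, with 58415, 54210 and 62264 units and log2 ratios of -0.30 at 50 μM and -0.15 at 100 μM. Its probe was among the brightest signal class, whose median ratios were -0.13 and -0.08, and its 50 μM spot carried a background flag. The 2 probes of ID2 did not give 1 direction at 50 μM. A_23_P143143 gave 14243, 16981 and 16328 units and log2 ratios of 0.06 and -0.04, and A_32_P69368 gave 19848, 19785 and 21645 units and log2 ratios of -0.19 and -0.11. ID1 was below 0 at 50 μM under all 8 alternatives of processing that gave a value, but 2 of 10 put it above 0 at 100 μM, by up to 0.10. ID3 kept a ratio above 0 at both doses under all 10 alternatives of processing. None of the 4 motifs was in the promoters of all 3 ID genes.

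**Figure D3:**
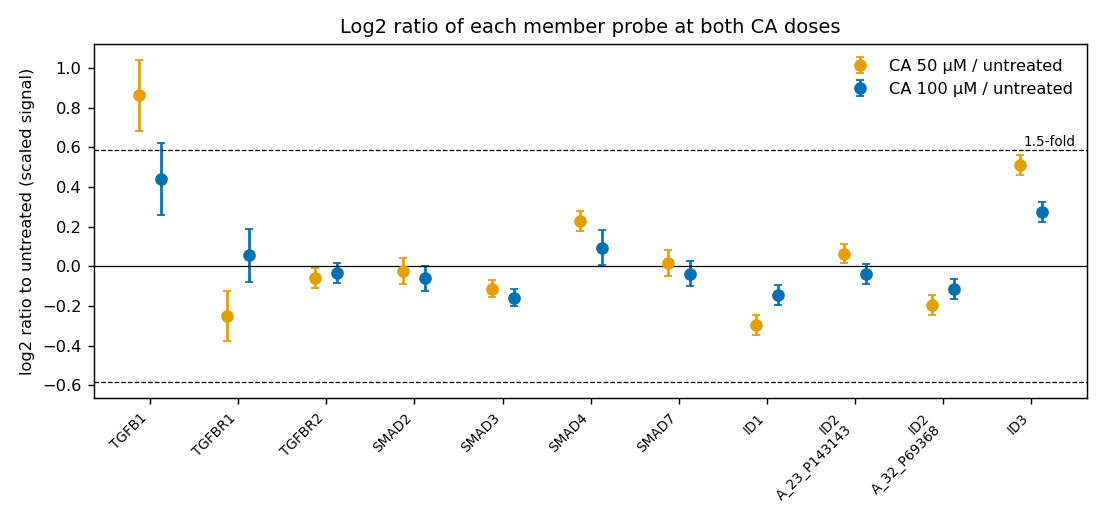
Log2 ratio of the scaled signal of each member probe at 50 μM and 100 μM to untreated, from 1 array per group; bars are ± SD between spots (the probe's own for TGFB1, SMAD3 and SMAD4, otherwise the median SD of probes of like signal printed 10 times), and dashed lines mark 1.5-fold. Only TGFB1 at 50 μM, at 0.86, lies past a dashed line.

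Counted over the set, 1 of 11 member probes (TGFB1) was at least 1.5-fold higher at 50 μM and 0 were at least 1.5-fold lower, against 5.05% and 2.17% of 22471 measured probes. At 100 μM the counts were 0 and 0, against 2.51% and 1.8% of 22267 probes. A 2-fold difference was reached by 0 member probes at either dose, while 1.07% of all measured probes reached it at 50 μM and 0.894% at 100 μM. Shares of this size over 11 probes amount to less than 1 probe, so that the counts are near the background. The median log2 ratio of the 10 genes was -0.04 at both doses, and that of all measured probes was -0.01 and -0.02. At both doses 4 genes were above 0 and 6 were below. The spread of all measured probes was 0.33 and 0.28 (SD, log2 scale). Of the 11 member probes, 8 had the same sign at both doses, and 6 had a 100 μM level between those of untreated and 50 μM (54.5%), as did 50.5% of 22114 probes. Both comparisons share the untreated array, so that likeness of the doses is no independent evidence.

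The 3 genes whose pattern over both doses was nearest to that of TGFB1, among 14546 genes measured on all arrays, were PI4KAP2, PRRC2A and PDXP. They lay 0.010, 0.011 and 0.014 away on the log2 scale (Euclidean distance over the 2 log2 ratios). PRRC2A, for example, had signals of 78.9, 164 and 125 units on the untreated, 50 μM and 100 μM arrays. With 2 ratios per gene, such likeness is a description of 3 arrays only.

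The wider pathway was read from 9 lists that held 122 genes beside the members, of which 101 were measured on all arrays. The lists were chosen with earlier results of these data known, so that their shares are a description and no independent evidence. At 50 μM, 12 of the 101 were at least 1.5-fold higher (11.9%) and 1 was lower (0.990%), against 4.17% and 2.10% of all 14546 genes. At 100 μM, 5 were higher (4.95%) and 1 lower (0.990%), against 1.54% and 1.49%. With each gene read from the probe brightest on the untreated array, which avoids choosing a probe by its treated signal, 11 were higher at 50 μM (10.9%, against 4.13% of all genes), and the counts at 100 μM stayed at 5 and 1. The gene lost was ATF3. At both doses 4 were higher (3.96%) and 1 was lower (0.990%), against 0.584% and 0.811% of all genes. With normexp without spots with background flags, 5 genes were apart from untreated at 50 μM and 2 at 100 μM. The shares of all measured probes fell too, to 1.435% higher and 0.7861% lower at 50 μM and to 0.2502% and 0.4217% at 100 μM. Of the 12 higher genes at 50 μM, 7 had an untreated signal below 100 units, where 27 of the 101 genes lay, and 5 came from the other 74 genes. At 100 μM these numbers were 3 and 2. All genes were not counted at this limit. Over 10 signal classes of all measured probes, the share at least 1.5-fold higher was largest in the class next to the dimmest. It was 10.3% there at 50 μM and 9.56% at 100 μM, against 0.400% and 0.0898% in the brightest class. The median log2 ratio of the 101 genes was -0.002 at 50 μM and -0.01 at 100 μM, and their spread (SD, log2 scale) was 0.36 and 0.30, against 0.31 and 0.25 over all genes.

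PMEPA1, a membrane protein that restrains TGF-β signalling and is itself induced by it, was the gene lower at both doses. Its brightest probe gave 1292 units in untreated cells, 774 at 50 μM and 865 at 100 μM, or 1.90-fold and 1.76-fold lower than untreated after scaling. A second probe gave 325, 144 and 338 units, which is 2.57-fold lower at 50 μM and 1.13-fold lower at 100 μM, so that the probes disagreed on the size at the higher dose. TCF4, an E protein that ID proteins bind, gave 278, 575 and 688 units and was 1.81-fold and 2.10-fold higher. EP300, a histone acetyltransferase that SMADs recruit, gave 1120, 1975 and 1982 units and was 1.55-fold and 1.501-fold higher, just past the limit at 100 μM. PIAS4, a nuclear regulator that binds SMADs, and CDKN2B, a cell cycle inhibitor induced by TGF-β, were dim probes. PIAS4 gave 21.6, 46.9 and 42.5 units and was 1.91-fold and 1.67-fold higher. CDKN2B gave 21.0, 41.1 and 73.9 units and was 1.72-fold and 2.99-fold higher, but its 100 μM spot lay in the area of raised dim signals. Without that area no 100 μM value of CDKN2B remained. PMEPA1, read from its brightest probe, and TCF4 were at least 1.5-fold apart at both doses under all 10 alternatives that kept the probe. This did not hold for EP300, PIAS4 and CDKN2B. Averaging the probes of a gene was not among the 10, and the second PMEPA1 probe did not reach 1.5-fold at 100 μM.

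**Figure D4:**
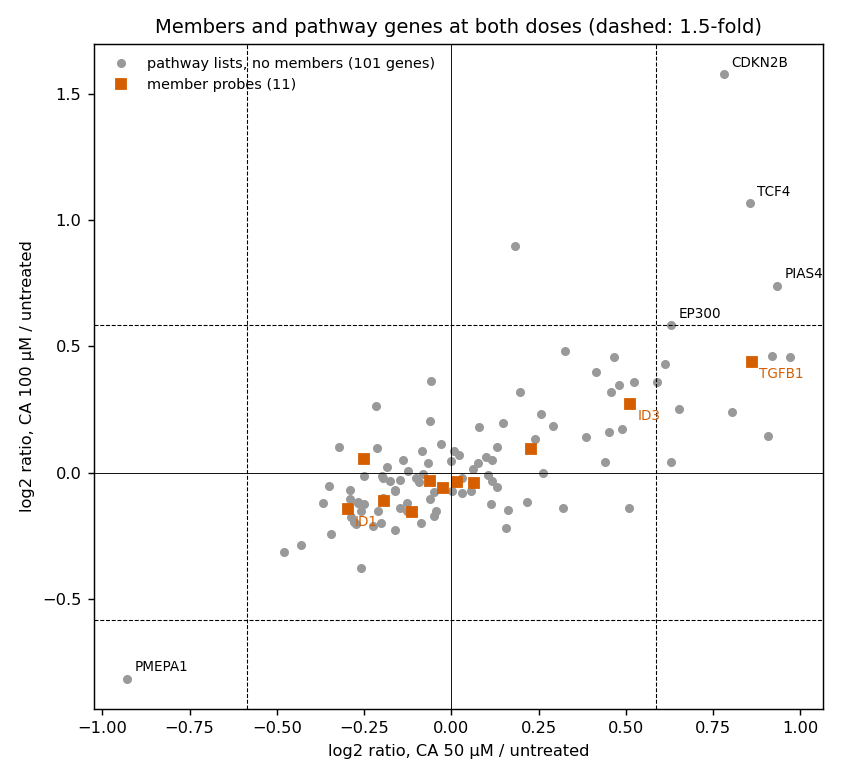
Log2 ratio to untreated at 50 μM (horizontal) and 100 μM (vertical) for the 11 member probes (squares) and 101 other pathway genes (circles), from 1 array per group; dashed lines mark 1.5-fold. PMEPA1 lies low at both doses and TCF4, PIAS4, CDKN2B and EP300 high at both, while TGFB1 is past the line at 50 μM only; both axes share the untreated array.

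By role, 11 of 18 other ligands were measured, and 1 was at least 1.5-fold higher at 50 μM, none at 100 μM. TGFB2, a sister ligand, gave 46.9, 84.0 and 65.7 units, or 1.57-fold and 1.19-fold higher. This dim probe passed 1.5-fold at 50 μM in 5 of 10 alternatives, and its log2 ratio there fell from 0.65 to 0.21 under both normexp settings. GDF15, a stress-induced ligand, gave 3086, 2526 and 2922 units and was 1.39-fold and 1.25-fold lower. The untreated spot of GDF15 carried a background flag, and 8 alternatives of processing gave it a value at each dose. None of the 11 measured receptors and co-receptors or the 4 other SMADs was 1.5-fold apart at either dose. The co-receptor TGFBR3 had log2 ratios of 0.49 and 0.17, the activin receptor ACVR1B 0.26 and 0.23, SMAD1 of the BMP branch -0.09 and -0.20 and the inhibitory SMAD6 -0.26 and -0.15.

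Of 12 measured genes of latency, activation and extracellular control, 2 were at least 1.5-fold higher at 50 μM and 1 at 100 μM. FURIN, the protease that cleaves the TGF-β precursor, gave 209, 468 and 339 units, 1.96-fold and 1.37-fold the untreated level. Its 100 μM level lay between the other 2, as did that of TGFB1 and of 50.5% of all 22114 probes. ITGB6, an integrin subunit that releases latent TGF-β, had log2 ratios of 0.18 and 0.90 at signals of 20.03, 25.9 and 43.98 units. ITGB6 was the gene of this list counted at 100 μM, where its log2 ratio was 0.07 under normexp without spots with background flags, and 2 of 10 alternatives put it below 0 at 50 μM, by as far as -0.09. Among 20 measured regulators of SMAD signalling inside the cell, of which SMAD7 is a member, 2 were higher and 1 lower at 50 μM, and 1 higher and 1 lower at 100 μM. Among 14 transcription partners 3 were higher at 50 μM and 1 at 100 μM. One of the 3 was ATF3, a stress-induced factor, whose probes disagreed. The probe A_33_P3214096, which had the highest mean signal, gave 427, 752 and 518 units and a log2 ratio of 0.63 at 50 μM. ATF3 was lower at 50 μM by its 3 other probes, with log2 ratios of -0.21, -0.17 and -0.22. Taking the probe brightest on the untreated array, A_23_P34915 with 505, 499 and 591 units, ATF3 was not called. E2F4, which acts with SMAD3 in repression, gave 125, 270 and 204 units and was 1.89-fold and 1.38-fold higher.

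Of 20 measured TGF-β induced genes, 2 were at least 1.5-fold higher and 1 lower at 50 μM, and 1 higher and 1 lower at 100 μM. Their median log2 ratios were 0.0005 and 0.08. The lower gene was PMEPA1, which is also the gene counted as lower among the regulators of SMAD signalling. Of 13 measured BMP induced genes, 4 of them members, 1 was higher at 50 μM and none at 100 μM, with medians of -0.14 and -0.04. GATA2, a transcription factor of this list, had log2 ratios of 0.61 and 0.43 at signals of 24.1 to 42.1 units. It was the gene counted as higher, but passed 1.5-fold at 50 μM in 4 of 10 alternatives, with a lowest log2 ratio of 0.09. Of 9 measured E proteins and ID partners, 1 (TCF4) was higher at both doses. HES1, a helix-loop-helix repressor, had log2 ratios of 0.47 and 0.46. The list median furthest from 0 was that of the other SMADs, -0.15 on the log2 scale at 100 μM.

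**Figure D5:**
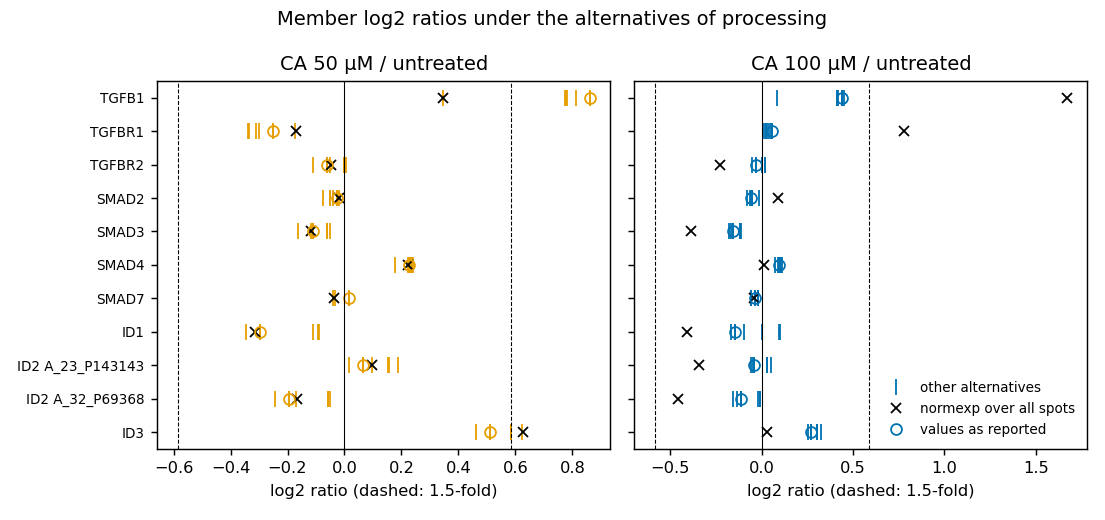
Log2 ratio to untreated of each member probe at 50 μM (left) and 100 μM (right) as reported (open circles), under normexp background correction over all spots (crosses) and under the other alternatives of processing (ticks); dashed lines mark 1.5-fold. At 100 μM the crosses stand apart from the other values, with TGFB1 at 1.67.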

How the data were processed

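For 3 Huh7 groups, Cy3-labelled RNA was put by the authors on single-colour Agilent 4 x 44 K arrays, 1 per group. The deposited spot files hold intensity values from Feature Extraction 11.0.1.1 (processed signal, background-subtracted but not scaled between arrays), and a table deposited by the authors holds log2 values of unstated normalization, used as an alternative. That table correlates with the log2 processed signal at 0.99996 or more and each of its columns has a median of 6.22, so that its centring is shared.

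Here, log2 processed signals were centred on each array's 75th percentile, taken over gene spots that had no outlier flag. Spots of a probe printed 10 times were averaged. A probe was measured when at least 50% of its spots were well above background on both arrays compared. Feature Extraction's own error put the SD of a member's log2 ratio at 0.20 to 0.23. Accessions in the files named 25771 of 34127 probes through RefSeq (GRCh38.p14). The array design was annotated on another build, so probe coordinates are not given. A gene of the pathway lists was read from its brightest measured probe. A spot was put in an area of raised dim signals by a window of 17 rows and 7 columns centred on it. In that window, at least 5 spots and 25% of dim-probe spots had to be at least 4-fold brighter on 1 array. Spots elsewhere in such a window were not counted unless their own window passed.

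Members and lists were chosen with earlier results of these data known. Named were all members, pathway genes at least 1.5-fold apart at both doses, the 2 genes of each list with the largest mean ratio, and the 3 genes nearest to the member that differed most. ATF3 and the split at 100 units were chosen after the values were seen. Other settings tried were cyclic loess, quantile normalization, median centring, normexp with an offset of 50 on median signals, the deposited log2 values, no filter on dim probes, leaving out areas of raised dim signals, saturated spots or background flags, averaging all probes of a gene, and, added after the data were seen, normexp without spots with background flags and the probe brightest on the untreated array. In simulated arrays of 22114 probes (CA 50 μM against untreated), 200 of 200 probes changed 4-fold were recovered at 2-fold with 0 other calls. The simulated noise was set below the spread between the real arrays, so that this checks the calculation and not the calls at 1.5-fold. Python 3.11.15, pandas 2.3.3, numpy 2.4.6, matplotlib 3.10.9, R 4.3.3 and limma 3.58.1 were used.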

Additional observations from a re-analysis of the deposited data

Results flagged for a closer look

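In 3 member probes the doses lay on opposite sides of untreated, a difference between the doses that was not tested. The log2 ratio of 100 μM to 50 μM was 0.3056 for TGFBR1, -0.05544 for SMAD7 and -0.1054 for ID2 (A_23_P143143). For SMAD7, 3 of 10 alternatives put the 50 μM value on the other side of 0, and for this ID2 probe 3 of 10 did so for the 100 μM value. TGFBR1 kept its sign at each dose under all 10 alternatives.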

How the results depend on the processing

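Between 8 and 12 alternatives gave a value for each result, and the members' median log2 ratio stayed between -0.09 and -0.02 at 50 μM and between -0.06 and 0.01 at 100 μM. Normexp over all spots moved the largest number of counts. It gave 2 member probes at least 1.5-fold apart and 1 at least 2-fold apart at 100 μM, where the values reported were 0 and 0, and 6 pathway genes at 50 μM and 44 at 100 μM, where 13 and 6 were reported. Of all measured probes, 1.45% were then at least 1.5-fold higher and 0.783% lower at 50 μM, and 45.8% and 1.16% at 100 μM. The median log2 ratio of pathway genes at 100 μM became 0.35. That fit also moved the median of all probes at 100 μM to 0.44, so that these values are relative to a shifted array. On the 100 μM array 6 spots had a local background above their signal, with a lowest signal minus background of -22913 units, and 0 spots on the other arrays did. Normexp without spots with background flags, an alternative chosen after seeing the data, brought the median of all probes to -0.06 and gave 5 pathway genes at 50 μM and 2 at 100 μM. It also lowered the shares of all measured probes, to 1.435% higher and 0.7861% lower at 50 μM and 0.2502% and 0.4217% at 100 μM. Under this correction the log2 ratio of TGFB1 was 0.35 at 50 μM and 0.08 at 100 μM. The offset of 50 units was as large as its signal. Both normexp settings gave 1 member probe at least 1.5-fold apart at 50 μM, but it was ID3, at 0.63 and 0.62, and not TGFB1. Under the other 8 alternatives TGFB1 stayed past 1.5-fold at 50 μM, from 0.77 to 0.86. No value past 1.5-fold of a member, or of a pathway gene chosen by the naming rule, changed sign under the alternatives that kept the probe. ATF3 was not followed through these. Its log2 ratio at 50 μM went from 0.63 to -0.21 with the probe brightest on the untreated array. Reading each gene from the probe brightest on the untreated array, also chosen after seeing the data, gave 12 pathway genes at 50 μM and 6 at 100 μM. No paired analysis was possible because each group had 1 array, and for the same reason no array could be left out. The number of arrays limits every value, and the signal over background limits TGFB1.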
